A study of Mus musculus with 19 samples.

Results

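The genes described here are 9 members of the transforming growth factor beta (TGF-beta) pathway, taken as a named list out of 51707 genes summed per library: the ligands Tgfb1 (ENSMUSG00000002603), Tgfb2 (ENSMUSG00000039239) and Tgfb3 (ENSMUSG00000021253), the receptors Tgfbr1 (ENSMUSG00000007613), Tgfbr2 (ENSMUSG00000032440) and Tgfbr3 (ENSMUSG00000029287), and the target genes Smad7 (ENSMUSG00000025880), Skil (ENSMUSG00000027660) and Tgfbi (ENSMUSG00000035493). The libraries came from tumours grown in C57BL/6J mice from T-LOH KPC organoids, organoids of pancreatic ductal adenocarcinoma (PDAC) transplanted orthotopically, and all groups share them. The mice received neratinib, an irreversible inhibitor of the ERBB receptor tyrosine kinases, or vehicle for 2 weeks. Cells were sorted as PDPN+ cells, the cancer-associated fibroblasts (CAFs) of the labels (4 vehicle and 4 neratinib libraries), or as EpCAM+ cells, their epithelial cells (6 vehicle and 5 neratinib libraries). The number in each title was read as the animal, which gives 11 mice, 8 of them with both populations. On that reading every library of a group is a separate mouse, written below with V for vehicle and N for neratinib. The sources used here give neither the age of the mice nor the dose. The labels do not say which of the sorted cells descend from the transplant and which belong to the host.

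TGF-beta ligands are secreted in a latent complex and act after release. The active ligand binds TGFBR2, which recruits and phosphorylates TGFBR1, and TGFBR1 then phosphorylates SMAD2 and SMAD3. TGFBR3, or betaglycan, is a coreceptor that binds all of the ligands and presents TGFB2 in particular, for which TGFBR2 alone has low affinity. SMAD7, which blocks the receptors, and SKIL (SnoN), which represses SMAD transcription, are feedback inhibitors induced by the pathway, and TGFBI is a secreted matrix protein named for its induction by TGF-beta. In pancreatic cancer the pathway is known for driving matrix-producing myofibroblastic CAFs and for growth arrest in epithelium with intact SMAD4.

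Sequences are shown first for the places where the transcript estimates or the levels of these genes differed between the populations. The first is the alternative coding exon of Tgfbr2 (chromosome 9), which separates the annotated transcripts Tgfbr2-201 and Tgfbr2-202. The exon is 75 bases long, covers bases 323 to 397 of Tgfbr2-202 in GENCODE M21, keeps the reading frame, and is printed in capitals with 21 coding bases on each side.

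Tgfbr2-202 exon: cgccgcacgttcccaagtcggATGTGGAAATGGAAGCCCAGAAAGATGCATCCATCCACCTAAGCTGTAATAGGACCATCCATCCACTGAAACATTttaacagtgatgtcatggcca

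RefSeq promoter windows (build GRCm38.p6) were held for 5 of the 9 members, in 6 windows. The 250 bases before the start are shown here. Tgfbr1 has a pair of RefSeq starts, an upstream and a downstream one. In both windows the capitals mark CG dinucleotides, of which a window held a median of 6 over all 32851 windows. The upstream start (chr4:47352972-47353221, + strand) has 29 CG dinucleotides and a GC content of 74.8%, and 93.2% of all windows have fewer. The downstream start (chr4:47385966-47386215, + strand) has 3 CG dinucleotides and a GC content of 52.8%, and 29.0% of windows have fewer.

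Tgfbr1 upstream start: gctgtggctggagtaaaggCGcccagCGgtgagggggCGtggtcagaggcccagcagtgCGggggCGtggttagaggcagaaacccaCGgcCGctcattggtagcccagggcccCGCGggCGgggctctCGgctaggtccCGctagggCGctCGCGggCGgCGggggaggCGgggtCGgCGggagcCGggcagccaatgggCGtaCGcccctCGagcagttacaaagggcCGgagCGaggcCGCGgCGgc

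Tgfbr1 downstream start: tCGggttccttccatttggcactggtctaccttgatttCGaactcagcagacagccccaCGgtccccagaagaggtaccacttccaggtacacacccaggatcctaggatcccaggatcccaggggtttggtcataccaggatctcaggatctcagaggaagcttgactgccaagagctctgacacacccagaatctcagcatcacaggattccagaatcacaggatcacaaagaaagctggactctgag

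Tgfb2 (chr1:186705990-186706239, - strand) and Tgfbi (chr13:56609336-56609585, + strand) are the windowed members with the largest differences between the populations. Their windows were searched on both strands for CAGAC, the core of the Smad box, which is in capitals (GTCTG where it lies on the other strand). Each of these windows held 2 matches, the Tgfbr2 window and the downstream Tgfbr1 window held 1 each, and the Tgfb1 window and the upstream Tgfbr1 window 0. Matches are common: 42.2% of all windows held at least 1 and 11.7% held at least 2. A match is a description of the letters and not a bound site.

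Tgfb2 promoter: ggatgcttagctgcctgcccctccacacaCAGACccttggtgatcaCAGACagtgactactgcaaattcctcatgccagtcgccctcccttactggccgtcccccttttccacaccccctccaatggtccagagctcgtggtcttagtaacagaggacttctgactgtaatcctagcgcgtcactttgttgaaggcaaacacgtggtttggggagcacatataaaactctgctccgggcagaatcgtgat

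Tgfbi promoter: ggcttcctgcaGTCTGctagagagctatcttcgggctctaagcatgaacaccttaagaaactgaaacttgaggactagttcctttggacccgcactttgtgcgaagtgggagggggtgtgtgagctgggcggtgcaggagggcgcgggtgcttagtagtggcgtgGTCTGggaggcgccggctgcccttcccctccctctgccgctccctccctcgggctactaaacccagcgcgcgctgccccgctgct

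Gene-assigned reads numbered 30.3 to 48.1 M (M for mega) in PDPN+ and 39.4 to 75.4 M in EpCAM+ libraries. Epcam, the gene of the marker used for the epithelial sort, was at most 0.540 TPM (transcripts-per-million, a level per transcript length) in any PDPN+ library. The summed TPM of 8 fibroblast markers ran from 5208 to 8270 in PDPN+ libraries and from 8.95 to 80.7 in EpCAM+ libraries. The summed TPM of 6 epithelial markers ran from 16145 to 21898 in EpCAM+ libraries and from 274 to 1197 in PDPN+ libraries. In PDPN+ libraries Krt19 reached 564 TPM, Krt8 447 TPM, Krt18 317 TPM, Cldn4 13.0 TPM and Cdh1 1.98 TPM. In EpCAM+ libraries they reached 6838, 5627, 7172, 2576 and 930 TPM, in the same order. PDPN is also carried by mesothelial cells. The summed TPM of 4 mesothelial markers ran from 268 to 1059 in PDPN+ and from 573 to 1012 in EpCAM+ libraries, where nearly all of it was Msln. The other 3 reached higher levels in PDPN+ libraries: Wt1 reached 111 TPM there and 0.510 TPM in EpCAM+ libraries, Upk3b 341 and 5.71 TPM, and Lrrn4 127 and 2.77 TPM. The part of epithelial and mesothelial RNA in the differences between the populations was not tested. By overall expression, the PDPN+ libraries of vehicle mice V53175 and V53188 stood apart (146 and 70.1 on the first principal component against -57.4 to -21.7 for the other 6). So did the EpCAM+ libraries of vehicle mice V53175 and V53176 and neratinib mouse N53178 (64.8 to 70.3 against -36.3 to -9.25 for the other 8). The PDPN+ libraries of V53175 and V53188 had 12102 and 11924 genes with at least 10 reads. The other PDPN+ libraries had 13691 to 18602 such genes, and EpCAM+ libraries 16542 to 17984. The part of gene detection in these positions was not tested. Mitochondrial genes took 6.14 to 19.5% of gene reads in PDPN+ and 2.15 to 2.89% in EpCAM+ libraries. In sorted bulk RNA, fewer cells expressing a gene and less RNA per cell cannot be told apart.

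To examine where the pathway is expressed in these tumours, PDPN+ libraries were compared with EpCAM+ libraries. By gene sum, all 3 ligands, all 3 receptors and the matrix target Tgfbi were higher in PDPN+ cells. The differences lay between 0.76 and 7.25 on the log2 scale of CPM (counts-per-million reads). The feedback inhibitors Smad7 and Skil did not pass the test. For Tgfb1, the levels of the coding transcript, given below, overlapped between the populations. The largest differences were in the coreceptor Tgfbr3, in Tgfbi and in Tgfb2. In all, 7 of 9 members were higher and 0 lower by the quasi-likelihood test of edgeR at a Benjamini-Hochberg adjusted p under 0.05. Among all 19626 genes tested, 49.3% were called, 24.3% higher and 25.0% lower in PDPN+ cells. The median log2 difference was 2.00 over the members and -0.13 over all genes. With mouse as a block (8 mice gave both populations), 5633 genes passed in place of 9673, and Tgfbr1 lost its call (0.74, adjusted p = 0.0626). On log2(TPM + 1) with limma the median of all genes shifted to -0.63, and the split of 4761 higher and 4912 lower genes became 2773 higher and 7541 lower. Member differences are therefore to be read against those medians.

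**Figure D1:**
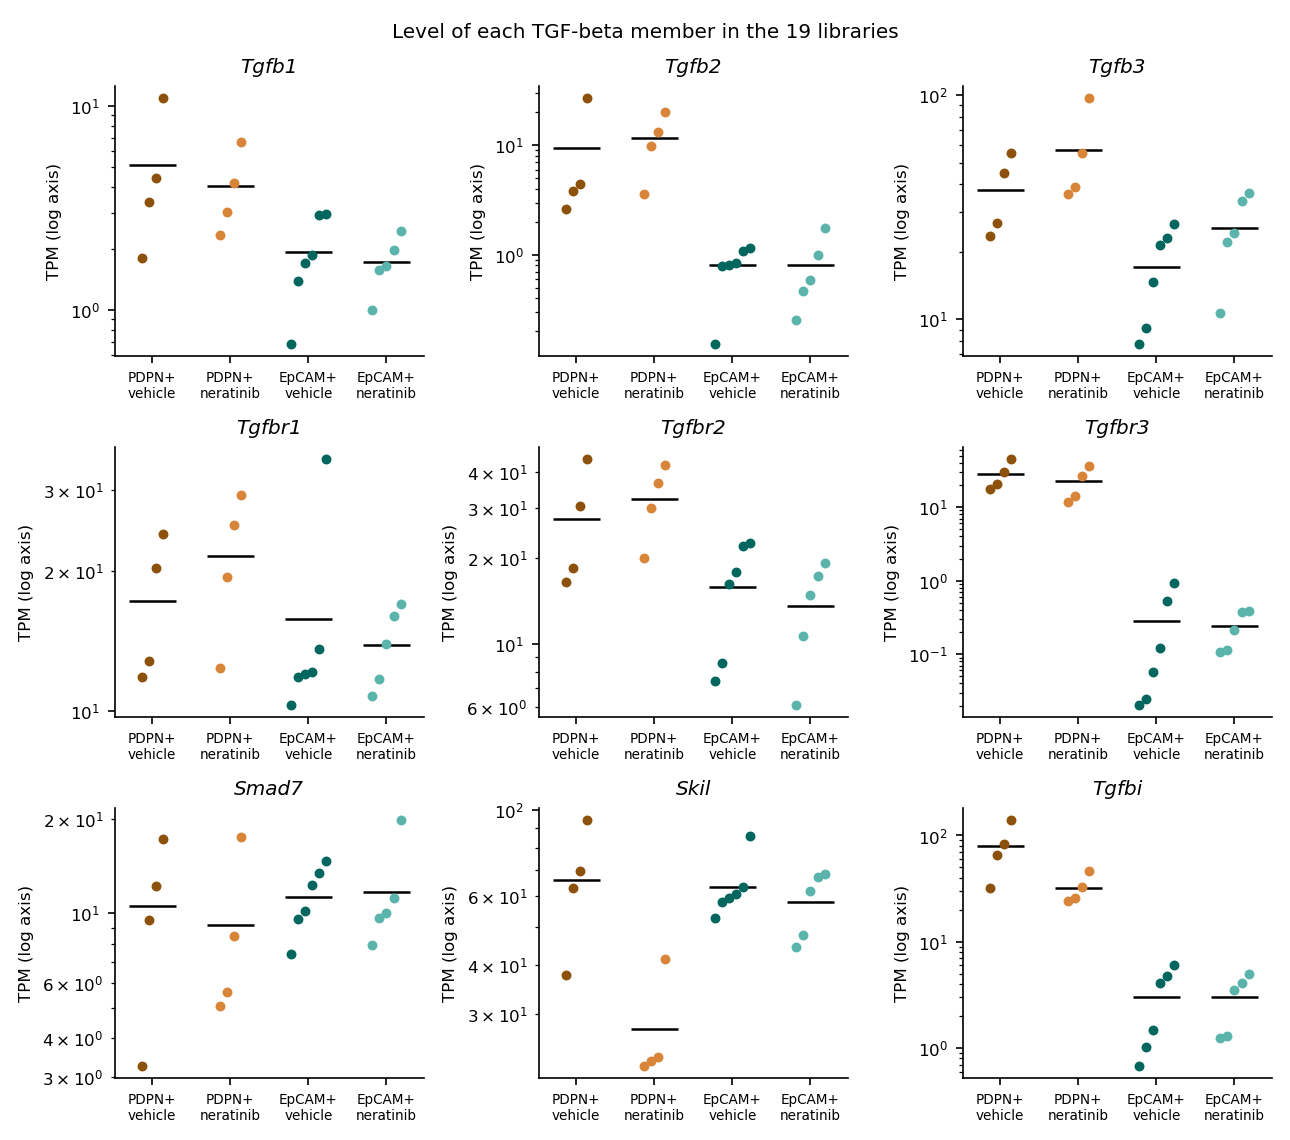
Level of each member in TPM on a log axis, by group; each point is a library and the black line is the group's mean. Tgfb2, Tgfbr3 and Tgfbi have every PDPN+ point above every EpCAM+ point, Smad7 overlaps across all groups, and the 4 Skil points of PDPN+ neratinib libraries lie below every EpCAM+ point.

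**Figure D2:**
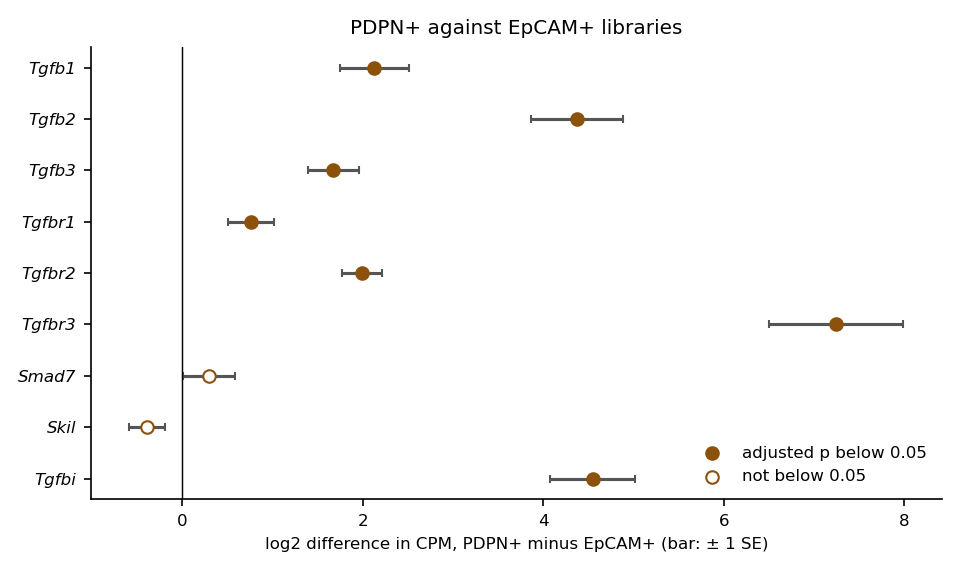
The log2 difference in CPM between PDPN+ and EpCAM+ libraries for each member, with a bar of 1 standard error (edgeR, 8 against 11 libraries); filled points pass at an adjusted p under 0.05. Tgfbr3 lies at 7.25 and Tgfbr1 at 0.76, and the open points of Smad7 and Skil lie on opposite sides of 0.

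Of the ligands, Tgfb3 was the most abundant in both populations. In PDPN+ vehicle libraries of mice V53175, V53179, V53185 and V53188, its level was 55.0, 27.0, 45.0 and 23.6 TPM, and in neratinib mice N53178, N53180, N53184 and N53194 it was 55.1, 96.9, 38.8 and 36.1 TPM. EpCAM+ vehicle libraries ran from 7.76 through a median of 18.1 to 26.8 TPM, and the neratinib libraries of mice N53178, N53180, N53184, N53193 and N53194 had 10.7, 22.2, 33.6, 24.3 and 36.6 TPM. The populations overlapped between 23.6 and 36.6 TPM, and the lowest EpCAM+ values belonged to the 3 libraries that stood apart. The log2 difference of 1.68 (SE 0.29) passed the test (adjusted p = 8.31e-05, edgeR) and was 1.22 without the 5 libraries that stood apart.

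Tgfb2, the ligand that depends most on betaglycan for receptor binding, separated the populations fully. PDPN+ vehicle libraries had 3.82, 4.39, 26.9 and 2.64 TPM and PDPN+ neratinib libraries 9.95, 20.3, 3.55 and 13.2 TPM, in the mouse order given for Tgfb3. EpCAM+ vehicle libraries ran from 0.152 through a median of 0.818 to 1.15 TPM, and EpCAM+ neratinib libraries had 1.00, 0.465, 0.586, 0.251 and 1.76 TPM. The lowest PDPN+ library stood above the highest EpCAM+ library, although PDPN+ levels themselves spanned from 2.64 to 26.9 TPM. Mouse V53185 gave the high vehicle value and mouse N53180 the high neratinib value. PDPN+ minus EpCAM+ came to 4.38 on the log2 scale (SE 0.51, adjusted p = 1.14e-06, edgeR), with PDPN+ cells higher in 8 of 8 mice with both populations, and was 2.34 on log2(TPM + 1).

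Tgfb1, the ligand most studied in fibrosis, was the lowest of the members in PDPN+ cells by median. It had 1.80, 3.37, 10.9 and 4.43 TPM in PDPN+ vehicle and 4.18, 2.33, 3.02 and 6.70 TPM in PDPN+ neratinib libraries. EpCAM+ vehicle libraries ran from 0.681 through a median of 1.78 to 2.96 TPM, and the 5 EpCAM+ neratinib libraries had 1.00, 1.65, 2.44, 1.58 and 1.97 TPM. Only the PDPN+ libraries of mice V53175 and N53180 fell within the EpCAM+ range. This gave a log2 difference of 2.13 (SE 0.38, adjusted p = 1.40e-04, edgeR), and it was 0.88 on log2(TPM + 1). It rested on 64 to 905 reads per library.

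The make-up of the ligand pool was then compared as the share of each ligand in the summed ligand TPM of a library, with exact two-sided permutation tests adjusted over 18 shares. Tgfb2 held 15.3% ± 8.90 of the pool in PDPN+ libraries (SD, n = 8) and 3.77% ± 2.22 in EpCAM+ libraries (SD, n = 11), and this difference passed (exact permutation, adjusted p = 5.95e-04). Tgfb3 held 76.3% ± 11.7 in PDPN+ against 87.9% ± 4.34 in EpCAM+ libraries (exact permutation, adjusted p = 0.0129). The share of Tgfb1 was 8.36% ± 4.69 and 8.34% ± 2.89, a difference of 0.0207 points (exact permutation, adjusted p = 0.991). These shares use gene sums. For Tgfb1, the transcript Tgfb1-204, annotated as a retained intron without a coding sequence, held much of that sum. Its mean part was 73.0% in PDPN+ and 39.1% in EpCAM+ libraries, so an equal share of the coding transcript was not shown. By gene sum, the ligand pool of PDPN+ libraries thus had relatively more Tgfb2 and less Tgfb3.

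Among the receptors, Tgfbr3 (betaglycan) was close to the detection limit in EpCAM+ cells and abundant in PDPN+ cells. It had 44.8, 17.4, 30.5 and 20.6 TPM in PDPN+ vehicle and 26.8, 11.9, 14.3 and 36.7 TPM in PDPN+ neratinib libraries. EpCAM+ vehicle libraries ran from 0.0203 through a median of 0.0889 to 0.936 TPM, and EpCAM+ neratinib libraries had 0.106, 0.372, 0.114, 0.388 and 0.216 TPM. The lowest PDPN+ library was above the highest EpCAM+ library, with 1978 to 9021 reads on one side and 4 to 155 on the other. This gave a log2 difference of 7.25 (SE 0.74, adjusted p = 2.46e-07, edgeR), or 4.29 on log2(TPM + 1), where the pseudocount lies above every EpCAM+ value. The low EpCAM+ level lay beside a summed fibroblast marker level of 8.95 to 80.7 TPM in the same libraries, and the part of residual fibroblast RNA in it was not tested.

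Tgfbr2, the ligand-binding receptor, was higher in PDPN+ cells in 8 of 8 mice. It had 30.5, 18.4, 44.5 and 16.6 TPM in PDPN+ vehicle and 36.8, 29.9, 20.0 and 42.5 TPM in PDPN+ neratinib libraries. The EpCAM+ vehicle range was 7.41 to 22.6 TPM with a median of 17.1, and EpCAM+ neratinib libraries had 6.11, 14.8, 19.3, 17.3 and 10.7 TPM. The vehicle libraries of mice V53179 and V53188 and the neratinib library of mouse N53184 lay within the EpCAM+ range, and the 3 lowest EpCAM+ values were those of the libraries that stood apart. The log2 difference was 2.00 (SE 0.22, adjusted p = 6.66e-07, edgeR). It was 1.48 with transcript length offsets and 1.00 on log2(TPM + 1) with limma (adjusted p = 0.00432).

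The signalling receptor Tgfbr1 differed least. PDPN+ vehicle libraries had 11.8, 12.8, 24.1 and 20.3 TPM and PDPN+ neratinib libraries 12.4, 29.3, 19.5 and 25.2 TPM. EpCAM+ vehicle libraries ran from 10.3 through a median of 12.1 to 34.9 TPM, and EpCAM+ neratinib libraries had 13.9, 16.1, 11.7, 10.8 and 17.1 TPM. The ranges overlapped almost wholly, and the highest library of all was the EpCAM+ vehicle library of mouse V53185. The log2 difference of 0.76 (SE 0.26, adjusted p = 0.0193, edgeR) did not pass without the libraries that stood apart (0.53, adjusted p = 0.162), in vehicle libraries alone (0.54, adjusted p = 0.326) or on log2(TPM + 1) (0.37, adjusted p = 0.183). It was also lost without the PDPN+ library of mouse V53188, N53180, N53184 or N53194, with adjusted p values of 0.0874, 0.0570, 0.0585 and 0.0522.

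As shares of the summed receptor TPM, Tgfbr3 made up 33.4% ± 9.82 in PDPN+ (SD, n = 8) and 0.779% ± 0.712 in EpCAM+ libraries (SD, n = 11). The exact permutation p of 1.32e-05 is the smallest these groups allow (adjusted p = 2.38e-04). Tgfbr1 held 27.2% ± 9.76 in PDPN+ and 50.3% ± 11.7 in EpCAM+ libraries (exact permutation, adjusted p = 0.00333), and Tgfbr2 39.4% ± 6.09 and 48.9% ± 11.5 (exact permutation, adjusted p = 0.150). The receptor TPM of EpCAM+ libraries was thus nearly all Tgfbr1 and Tgfbr2, while PDPN+ libraries carried the 3 receptors in comparable amounts.

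**Figure D3:**
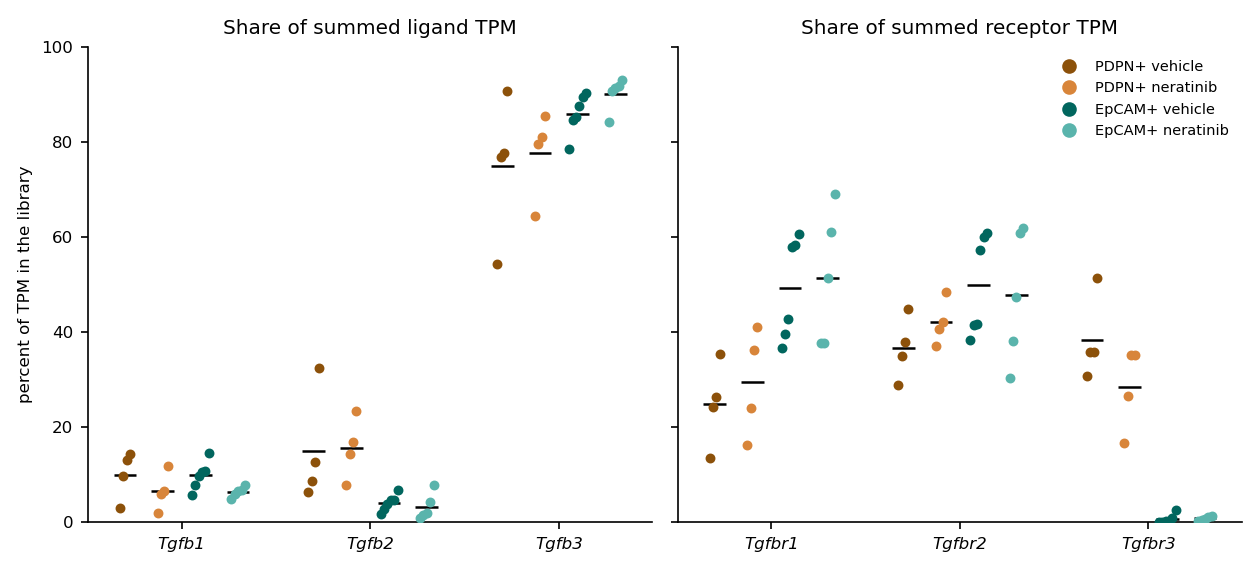
Share of each ligand in the summed TPM of Tgfb1, Tgfb2 and Tgfb3 (left) and of each receptor in that of Tgfbr1, Tgfbr2 and Tgfbr3 (right), in percent; each point is a library and the black line is the group's mean. Tgfb3 takes 54.3 to 93.0% of the ligand TPM, and Tgfbr3 lies at 16.7 to 51.4% in PDPN+ libraries and at 0.0715 to 2.52% in EpCAM+ libraries.

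The target genes did not move together. Tgfbi had 82.5, 139, 65.6 and 32.1 TPM in PDPN+ vehicle and 25.7, 46.4, 24.2 and 33 TPM in PDPN+ neratinib libraries. In EpCAM+ cells it ran from 0.678 through a median of 2.78 to 6.09 TPM with vehicle, and was at 1.30, 1.24, 3.50, 4.09 and 5.01 TPM with neratinib. The populations did not overlap, and the log2 difference was 4.55 (SE 0.47, adjusted p = 2.72e-07, edgeR). Full separation with PDPN+ above EpCAM+ held for 3 of 9 members, Tgfb2, Tgfbr3 and Tgfbi, against 5.55% of all genes tested.

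Smad7, the inhibitory Smad, was at similar levels in both populations. It had 9.50, 12.2, 17.2 and 3.26 TPM in PDPN+ vehicle, 5.63, 17.6, 8.44 and 5.08 TPM in PDPN+ neratinib, a range of 7.41 to 14.7 TPM (median 11.2) in EpCAM+ vehicle, and 7.92, 9.68, 11.2, 10.0 and 19.8 TPM in EpCAM+ neratinib libraries. The PDPN+ values spread beyond the EpCAM+ values at the low end. The difference came to 0.30 on the log2 scale (SE 0.29, adjusted p = 0.414, edgeR), and its sign was opposite on log2(TPM + 1), at -0.32.

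Skil, the nuclear co-repressor, was the most abundant member in EpCAM+ cells, above the next member, Tgfb3, in 11 of 11 libraries. PDPN+ vehicle libraries had 63.1, 69.5, 37.7 and 94.1 TPM and PDPN+ neratinib libraries 22.0, 41.5, 23.3 and 22.7 TPM. EpCAM+ vehicle libraries ran from 52.7 through a median of 60.1 to 85.7 TPM, and EpCAM+ neratinib libraries had 67.4, 61.9, 44.6, 47.8 and 68.4 TPM. All PDPN+ neratinib libraries were below every EpCAM+ library. Of the PDPN+ vehicle libraries, that of mouse V53185 lay below the EpCAM+ range, V53188 above it, and V53175 and V53179 within it. The log2 difference of -0.39 (SE 0.20, adjusted p = 0.109, edgeR) passed in neratinib libraries alone (-0.94, adjusted p = 0.0317) and had the other sign in vehicle libraries alone (0.23, adjusted p = 0.528). It also passed without the 5 libraries that stood apart (-0.66, adjusted p = 0.0334), on log2(TPM + 1) (-0.54, adjusted p = 0.0149), and without the PDPN+ library of mouse N53180 (-0.62, adjusted p = 0.00680) or mouse V53188 (-0.59, adjusted p = 0.0143), and it was -0.01 with transcript length offsets.

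By median TPM, the order in PDPN+ cells was Tgfb3 (41.9), Tgfbi (39.7), Skil (39.6), Tgfbr2 (30.2), Tgfbr3 (23.7), Tgfbr1 (19.9), Smad7 (8.97), Tgfb2 (7.17) and Tgfb1 (3.78). The leading members changed places between libraries: Tgfb3 was above Tgfbi in 4 of 8 and Skil above Tgfbr2 in 5 of 8, whereas Tgfbr1 was above Smad7 in 8 of 8. The order in EpCAM+ cells was Skil (60.8), Tgfb3 (22.2), Tgfbr2 (16.3), Tgfbr1 (12.1), Smad7 (10.2), Tgfbi (3.50), Tgfb1 (1.71), Tgfb2 (0.800) and Tgfbr3 (0.120). There Tgfbr2 and Tgfbr1 were not separated (Tgfbr2 higher in 5 of 11), and Smad7 was above Tgfbi in 11 of 11.

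The deposited estimates are per transcript, so the share of each annotated transcript in its gene's TPM was compared between the populations, in libraries where the gene had at least 1 TPM. These are Salmon's estimates, which divide reads shared between transcripts by a model. Of 22 transcripts compared by exact two-sided permutation tests, 12 passed after adjustment. Shares of transcripts of the same gene depend on each other, so these tests are not independent. Tgfbr2-201 and Tgfbr2-202 mirror each other at -38.7 and 38.7 points, and both count among the 12. The difference in share was largest in Tgfbr2. The transcript Tgfbr2-202, which carries the 75-base exon printed at the start, held 82.5, 95.8, 72.8 and 58.4% of the gene's TPM in PDPN+ vehicle and 92.5, 94.9, 86.0 and 47.1% in PDPN+ neratinib libraries. EpCAM+ libraries ran from 32.2 through a median of 36.6 to 58.2%. The PDPN+ library of mouse N53194 lay within the EpCAM+ range, that of V53188 just above it and the other 6 well above it. The means were 78.8% ± 18.0 (SD, n = 8) and 40.1% ± 9.08 (SD, n = 11), with an adjusted p of 3.88e-04 by exact permutation. Tgfbr2-202 also has 4636 more bases at its 3′ end than Tgfbr2-201, so reads from the exon and reads from the longer 3′ end cannot be told apart here.

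Tgfbr1-203 held 20.7% ± 18.5 of Tgfbr1 TPM in PDPN+ (SD, n = 8) and 3.01% ± 1.14 in EpCAM+ libraries (SD, n = 11). Its adjusted p was 0.00883 by exact permutation. Its PDPN+ values were 25.8, 27.0, 21.4 and 0.356% with vehicle and 56.2, 28.0, 4.03 and 2.82% with neratinib, so 5 libraries were high and 3 within or below the EpCAM+ range of 1.40 to 4.94%. Over the 8 mice with both populations as blocks the difference was 17.6 points and did not pass (exact permutation by sign flips, adjusted p = 0.103). The main transcript Tgfbr1-201 held 73.1% ± 16.0 in PDPN+ and 89.0% ± 2.50 in EpCAM+ libraries (exact permutation, adjusted p = 0.00611, or 0.0764 with mouse blocks).

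For Tgfb1, most of the PDPN+ estimate was on Tgfb1-204, annotated as a retained intron without a coding sequence. Its share was 73.0% ± 19.3 in PDPN+ (SD, n = 8) and 39.1% ± 12.1 in EpCAM+ libraries (SD, n = 10; exact permutation, adjusted p = 0.00260). The coding transcript Tgfb1-201 held 16.4% ± 15.0 and 37.0% ± 11.6 (exact permutation, adjusted p = 0.0123, or 0.143 with mouse blocks). As levels, Tgfb1-201 ran from 0 to 1.98 TPM in PDPN+ and from 0.268 to 1.14 TPM in EpCAM+ libraries. Tgfb1-204 ran from 1.57 to 7.69 TPM in PDPN+ and from 0.319 to 0.895 TPM in EpCAM+ libraries. The gene sum of Tgfb1 in PDPN+ cells is thus in large part an estimate of a transcript with no annotated protein, at low read numbers. A higher level of the coding transcript in PDPN+ cells was not shown. Unspliced RNA was not measured, and its part in this share was not tested.

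Skil showed the broadest shift. Skil-204 held 27.5% ± 11.3 in PDPN+ and 53.4% ± 3.94 in EpCAM+ libraries (SD, n = 8 and 11), with no overlap between 12.9 to 42.8% and 47.6 to 59.2% (exact permutation, adjusted p = 2.91e-04). Skil-201 held 9.36% ± 8.11 and 29.0% ± 7.38 (exact permutation, adjusted p = 5.82e-04). Higher in PDPN+ libraries were Skil-203 (28.7% ± 17.3 against 5.68% ± 8.26), Skil-202 (11.3% ± 9.86 against 0.293% ± 0.471) and the retained-intron transcript Skil-206 (18.3% ± 14.6 against 7.44% ± 1.10). Their adjusted p values by exact permutation were 0.00557, 7.57e-04 and 0.0236. Skil-206 lost its call with mouse blocks (0.141) and without the PDPN+ library of mouse V53175, V53185 or N53194 (0.0564, 0.0534 and 0.0650). Smad7-201 held nearly all of Smad7 in both populations (99.6% ± 1.04 and 93.7% ± 6.36, exact permutation, adjusted p = 0.0236), and Tgfb3 has a single transcript in the table.

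**Figure D4:**
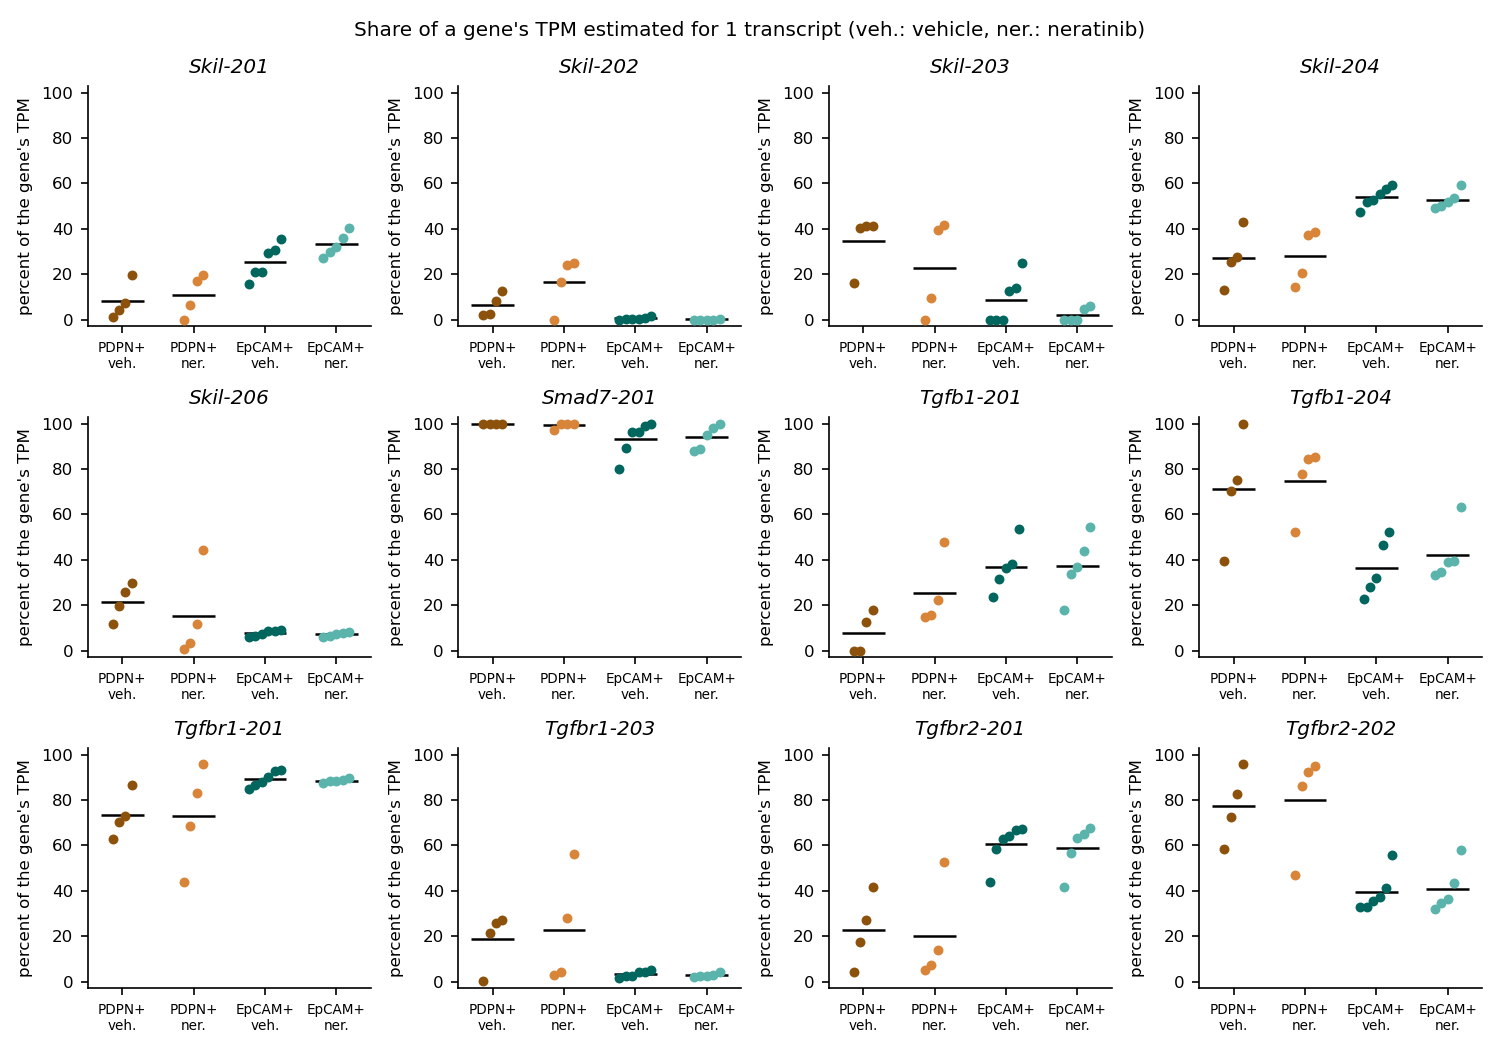
Share of a gene's TPM that Salmon assigned to 1 transcript, in percent, for the 12 transcripts that passed, by group; each point is a library in which the gene had at least 1 TPM, and the black line is the group's mean. EpCAM+ points lie close together at 32.2 to 58.2% for Tgfbr2-202 and at 47.6 to 59.2% for Skil-204, while PDPN+ points spread widely.

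Tgfb2 transcripts could be compared in all 8 PDPN+ libraries but only 4 EpCAM+ libraries, and none of the 4 transcripts compared passed. Within PDPN+ cells, Tgfb2-206, with an additional coding exon of 84 bases, held 91.8 and 94.3% in the vehicle libraries of mice V53175 and V53188 and 0 to 43.7% in the other 6. These are the 2 PDPN+ libraries that stood apart by overall expression. Tgfb2-201, without the exon, held 8.18 and 5.73% there and 56.3 to 100% in the others. Tgfb2-201 also has 1426 more bases at its 3′ end than Tgfb2-206. Reads from the exon and reads from the longer 3′ end cannot be told apart here. The libraries of V53175 and V53188 also had the fewest Tgfb2 reads, 433 and 304, against 719 to 4665 in the other PDPN+ libraries.

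To examine what neratinib did to the pathway in CAFs, neratinib was compared with vehicle in PDPN+ libraries. No member passed, and 0.0% of the 14437 genes tested did, so the comparison gives sizes and not calls. The edgeR test had 331 genes at an unadjusted p under 0.05, or 2.29%, and DESeq2 called 73 genes, 0 of them members. Skil and Tgfbi stood at lower values with neratinib, and the ligands and receptors had differences of either sign, none of which passed. Over the 9 members the median log2 difference was 0.11, against 0.06 over all genes.

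Skil averaged 66.1 ± 23.2 TPM with vehicle and 27.4 ± 9.44 TPM with neratinib (SD, n = 4 each). The neratinib libraries of mice N53178, N53184 and N53194 were below all 4 vehicle libraries, and mouse N53180, at 41.5 TPM, was above the lowest vehicle library, mouse V53185 at 37.7 TPM. The log2 difference was -1.25 (SE 0.39, unadjusted p = 0.00888, adjusted p = 1.00, edgeR). With all 19 libraries in the fit, which called 111 genes, it was -1.24 (adjusted p = 0.0620), and by DESeq2 it had an adjusted p of 0.608. Without the vehicle libraries of mice V53175 and V53188, which leaves 2 vehicle libraries, it was -0.83.

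Tgfbi averaged 79.8 ± 44.6 TPM with vehicle and 32.3 ± 10.1 TPM with neratinib (SD, n = 4 each). Vehicle mice V53175, V53179 and V53185 were above every neratinib library, and vehicle mouse V53188, at 32.1 TPM, was within their range of 24.2 to 46.4 TPM. The log2 difference was -1.38 (SE 0.43, unadjusted p = 0.00896, adjusted p = 1.00, edgeR), and -1.67 without the libraries that stood apart. Summed macrophage markers, another possible source of Tgfbi RNA, were at 27.3 to 106 TPM (median 49.4) with vehicle and 57.1 to 452 TPM (median 63.8) with neratinib. The markers did not move together. Lyz2 reached 13.9 TPM with vehicle and 301 TPM with neratinib, and Cd68, C1qa, C1qb, Itgam and Ptprc also had higher maxima with neratinib. Adgre1 reached 27.3 and 0 TPM and Csf1r 40.9 and 20.8 TPM, in the same order. The part of macrophage RNA in the Tgfbi level was not tested. TPM ranges overlapped for 9 of 9 members, and 2.81% of all genes had ranges without overlap.

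The other members had wide errors in PDPN+ cells. Tgfb3 differed by 0.67 (SE 0.41), Tgfb2 by 0.58 (SE 0.76), Tgfbr2 by 0.35 (SE 0.32), Tgfbr1 by 0.34 (SE 0.44) and Tgfb1 by 0.11 (SE 1.03). Tgfbr3 differed by -0.46 (SE 0.48) and Smad7 by -0.03 (SE 0.64). The signs of Tgfb1, Tgfb2 and Tgfbr3 were opposite without the libraries that stood apart (-0.36, -0.16 and 0.15). A change of the size of those errors was not detectable with 4 libraries a group.

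The same comparison in EpCAM+ libraries called 0 members and 0.0% of 17200 genes by edgeR (524 genes, or 3.05%, at an unadjusted p under 0.05), and 15 genes by DESeq2. Tgfb3 had the largest difference among the members, 17.2 ± 7.83 TPM with vehicle (SD, n = 6) and 25.5 ± 10.2 TPM with neratinib (SD, n = 5), a log2 difference of 0.52 (SE 0.35, adjusted p = 1.00, edgeR). Skil was at 63.3 ± 11.5 and 58.0 ± 11.1 TPM, a log2 difference of -0.14 (SE 0.15), and Tgfbi at 3.02 ± 2.25 and 3.03 ± 1.69 TPM, a difference of 0.05 (SE 0.64). The remaining 6 members lay between -0.26 and 0.18. All 9 members had overlapping TPM ranges (0.401% of all genes did not). The share of Tgfb1 in the ligand pool averaged 9.92% ± 3.02 with vehicle (SD, n = 6) and 6.45% ± 1.09 with neratinib (SD, n = 5), which did not pass (exact permutation p = 0.0325, adjusted p = 0.117) except without the vehicle library of mouse V53192 (adjusted p = 0.0286).

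The interaction, which subtracts the EpCAM+ difference between neratinib and vehicle from the PDPN+ one, was called for 13 of 19626 genes (0.0662%) and for 0 members by edgeR. At an unadjusted p under 0.05, 11.2% of genes and 1 member, Skil, were found. For Skil the interaction was -1.12 (SE 0.39, unadjusted p = 0.00974, adjusted p = 0.230), and -0.56 without the libraries that stood apart. For Tgfbi it was -1.45 (SE 0.86, adjusted p = 0.617). A difference of the neratinib response between the populations was therefore not shown for any member.

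**Figure D5:**
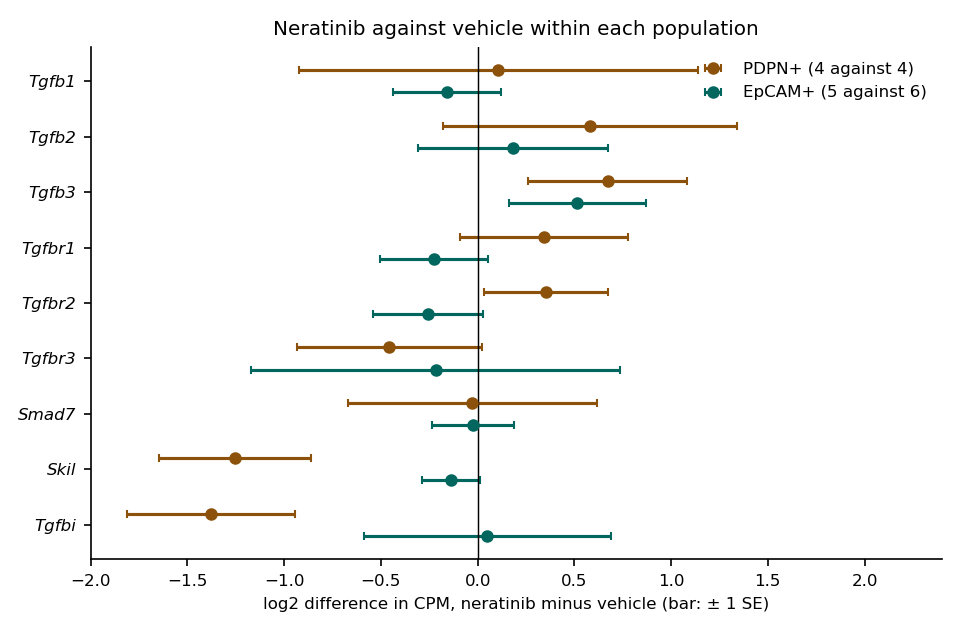
The log2 difference in CPM between neratinib and vehicle libraries for each member, within PDPN+ and within EpCAM+ cells, with a bar of 1 standard error (edgeR). Skil and Tgfbi in PDPN+ cells lie at -1.25 and -1.38 and the other points lie between -0.46 and 0.67, and none passes at an adjusted p under 0.05.

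The other genes of the pathway were described from 4 lists with 51 genes, by the same edgeR tests. Those lists too were chosen with earlier results of these data known, and their counts are to be read against the 49.3% of all genes called, 24.3% higher and 25.0% lower in PDPN+ cells. Of 13 genes that hold or release latent TGF-beta, 9 were higher in PDPN+ cells, 2 lower and 2 did not pass, with a median log2 difference of 1.19. Higher were decorin (Dcn, 8.50, SE 0.73), a proteoglycan that binds TGF-beta, Emilin1 (6.75, SE 0.60), which restrains processing of the precursor, Lrrc32 or GARP (6.13, SE 0.68), which tethers latent ligand to the cell surface, and thrombospondin 1 (Thbs1, 2.49, SE 0.36), an activator. The genes lower in PDPN+ cells were Itgb6 (-7.79, SE 0.77), whose integrin releases active ligand at epithelial surfaces, and Furin (-2.81, SE 0.48), the protease that cleaves the precursor. Itgb6 ran from 30.4 to 77.8 TPM in EpCAM+ and from 0 to 2.12 TPM in PDPN+ libraries. Adjusted p values of these 6 genes were between 2.63e-08 (Dcn) and 9.42e-05 (Furin).

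Of 11 coreceptors and receptor regulators, 3 were higher in PDPN+ cells, 0 lower and 8 did not pass, with a median of 0.13; over all genes 24.3% were higher and 49.3% called in either direction, so the share higher was near the background and the share called below it. The 3 were endoglin (Eng, 5.38, SE 0.59, adjusted p = 5.16e-07), the alternative type I receptor ALK1 (Acvrl1, 3.86, SE 0.38, adjusted p = 1.28e-07) and Cd109 (4.51, SE 0.95, adjusted p = 6.46e-04), a coreceptor that restrains signalling. Endoglin and ALK1 are also endothelial genes, and 5 blood endothelial markers summed to 3.40 to 34.0 TPM in PDPN+ and 0.624 to 9.11 TPM in EpCAM+ libraries. Their part in those differences was not tested.

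Of 8 Smad genes and nuclear partners tested (of 9 listed), Ski, a co-repressor related to Skil, was higher in PDPN+ cells (0.92, SE 0.20, adjusted p = 8.71e-04). The homeobox co-repressor Tgif1 (-1.57, SE 0.19, adjusted p = 1.30e-06) and Smad2 (-1.73, SE 0.53, adjusted p = 0.0115) were lower, and 5 did not pass. The median was -0.09 against -0.13 over all genes, and the 3 calls of 8 stand against 49.3% of all genes called, which is no more than the background.

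All of 18 other target genes passed, 15 higher and 3 lower in PDPN+ cells, with a median of 2.93, where 49.3% of all genes passed, 24.3% higher and 25.0% lower. The higher ones included the contractile genes Acta2 (7.67, SE 0.51, adjusted p = 9.24e-10) and Tagln (6.60, SE 0.49, adjusted p = 3.40e-09), the protease inhibitor Timp3 (6.22, SE 0.42, adjusted p = 9.71e-10) and Angptl4 (3.05, SE 0.27, adjusted p = 4.44e-08). Acta2 ran from 26.8 to 223 TPM in PDPN+ and from 0.133 to 1.47 TPM in EpCAM+ libraries. The lower ones were the cell cycle inhibitor Cdkn2b (-3.39, SE 0.69, adjusted p = 4.73e-04), the matricellular gene Ccn2 (-1.21, SE 0.42, adjusted p = 0.0216) and the early response factor Klf10 (-0.87, SE 0.26, adjusted p = 0.0103). Cdkn2b ran from 99.8 to 197 TPM in EpCAM+ and from 0 to 50.9 TPM in PDPN+ libraries. Many of the higher genes are also fibroblast genes by lineage, and pathway activity was not measured.

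With neratinib, 0 genes of these lists passed in either population or in the interaction, by edgeR or by DESeq2. In the interaction 0 of them had an unadjusted p under 0.05 by edgeR, against 11.2% of all genes. In PDPN+ cells 0 of them did, against 2.29% of all genes, and the smallest belonged to periostin (Postn, 1.15, SE 0.54, unadjusted p = 0.0583) and Bhlhe40 (-0.75, SE 0.36, unadjusted p = 0.0631). In EpCAM+ cells 2 of the 48 genes tested did (4.17%, near the 3.05% of all genes), Bhlhe40 (-0.37, SE 0.15, unadjusted p = 0.0308) and Acvrl1 (0.59, SE 0.26, unadjusted p = 0.0437).

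Genes whose log2 CPM followed each member most closely over the 19 libraries were taken from 11677 genes, as a description in which the populations dominate. Tgfbr3 was closest to Aebp1 (Pearson r = 0.97), Chl1 and Bmper. Tgfb2 was closest to Tmem100 (r = 0.96), Trps1 and Fbn1, and Tgfbi to Osmr (r = 0.96), Maged1 and Cyp1b1. Tgfbr2 was closest to Zfp651 (r = 0.98), Col16a1 and Fam166a, Tgfb3 to Dtx3 (r = 0.94), Lrp1 and Adamts4, and Tgfb1 to Aoc3 (r = 0.92), Tram2 and Barx1. For the remaining members the closest genes were Ywhae (r = 0.93), Mrtfb and Srsf2 for Skil, Zc3h7a (r = 0.78), Dnmt3a and Nf1 for Smad7, and Rnf213 (r = 0.80), Gm8773 and Ube2w for Tgfbr1. All points share libraries, depth and scaling.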

How the data were processed

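RNA-seq was deposited for 19 libraries of PDPN+ and EpCAM+ cells sorted from mouse pancreatic tumours. Transcripts were quantified with Salmon 1.9.0 on build GRCm39 (mm39), per the submitters' processing notes, which name no transcriptome release. The deposited tables hold expected counts (not normalised), TPM and an effective length per transcript, per the file headers; effective length served as an offset in 1 alternative only. Per the labels' protocols, a low-input kit was used with PCR cycles set by RNA amount. No molecular identifiers are stated, so reads may be PCR copies.

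Of 147828 transcripts, 137063 matched GENCODE M21 (GRCm38) by identifier and were summed to 51707 genes; the other 10765 held 1.77 to 8.96% of the reads. Counts were rounded and tested with edgeR 4.0.16 in R 4.3.3 (TMM, filterByExpr, robust quasi-likelihood F-test, Benjamini-Hochberg over all genes): the populations and the interaction over all 19 libraries with 4 group means, neratinib within each population alone. Shares were compared by exact two-sided permutation tests. Alternatives were DESeq2 1.42.0, its size factors, no low-count filter, limma 3.58.1 on log2(TPM + 1) or log2(TPM + 0.1), length offsets, mouse blocks, other sample sets, the code digit of the file names as a covariate, and leaving out libraries. Scripts were tested on simulated data. Mouse blocks rest on the same animal giving both populations; deviations of same-mouse libraries from their group means correlated at -0.108 to 0.0306 over 8 mice. Members and lists were chosen with earlier results of these data known. The genes named are all 9 members; of each other pathway list, up to 4 with the smallest p in each direction of the population comparison and the 2 with the smallest unadjusted p per treatment comparison, not all of which are printed; and the 3 most similar genes per member with a mean of at least 4 CPM. Transcripts were compared where their mean share was at least 5% in a population. Smad7 promoter letters are not shown.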

Additional observations from a re-analysis of the deposited data

Results flagged for a closer look

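Single libraries far from the rest of their group were looked for in groups of 4 to 6 by Dixon's ratio, which chance passes in about 1 in 20 groups. Of 60 groups tested, 8 had such a library. For levels, these were the PDPN+ vehicle library of mouse V53185 for Tgfb2 (26.9 TPM, above the others), the EpCAM+ vehicle library of mouse V53175 for Tgfb2 (0.152 TPM, below), the EpCAM+ vehicle library of mouse V53185 for Tgfbr1 (34.9 TPM, above) and for Skil (85.7 TPM, above), the EpCAM+ neratinib library of mouse N53194 for Smad7 (19.8 TPM, above) and the PDPN+ neratinib library of mouse N53180 for Skil (41.5 TPM, above). For shares, they were Tgfb3 in the EpCAM+ neratinib library of mouse N53178 (84.3% of ligand TPM, below) and Tgfbr3 in the EpCAM+ vehicle library of mouse V53192 (2.52% of receptor TPM, above). Mouse V53185 accounted for 3 of the 8.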

How the results depend on the processing

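In the population comparison, Tgfb1, Tgfb2, Tgfb3, Tgfbr2, Tgfbr3 and Tgfbi kept their direction and call under all 29 alternatives each. Members passing ran from 6 to 7 when a library was left out, but not always with the same members. Without the PDPN+ library of mouse N53180 or V53188, Tgfbr1 lost its call and Skil gained one, as lower in PDPN+ cells. In neratinib libraries only 8 members passed, with Skil again lower, and in vehicle libraries only 6 passed. Genes passing went from 9673 to 5633 with mouse as a replicate block, 5838 in neratinib libraries only and 5421 in vehicle libraries only. The mouse block changed no other member's call in that comparison than Tgfbr1. Smad7 reversed to -0.37 and -0.32 on log2(TPM + 0.1) and log2(TPM + 1), and Skil to 0.23 in vehicle libraries only.

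Neratinib genes passing in PDPN+ cells went from 0 to 111 with all 19 libraries in the fit and 73 by DESeq2, and in EpCAM+ cells from 0 to 15 by DESeq2. The interaction went from 13 genes to 671 (DESeq2), 3 (log2(TPM + 1)) and 314 (without the libraries that stood apart), and to 9 to 131 when a library was left out: 131 and 127 without the PDPN+ vehicle library of mouse V53188 or V53175, 59, 28 and 21 without the PDPN+ neratinib library of mouse N53194, N53178 or N53184, and 23 without the PDPN+ vehicle library of mouse V53185. With the block it stayed at 13. No member passed in any of these. The causes were not tested.

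Uncalled differences reversed as follows. In PDPN+ cells with neratinib, Tgfb1 was -0.14 on both TPM scales, -0.21 with length offsets and -0.36 without the libraries that stood apart, where Tgfb2 was -0.16 and Tgfbr3 0.15. In EpCAM+ cells, Tgfb2 (-0.0276) and Tgfbi (-0.0276) reversed with length offsets, Smad7 (0.0181 and 0.0184) on the TPM scales and Tgfbi (-0.15) without the libraries that stood apart. In the interaction, Tgfb1 was -0.0874 and -0.0821 on the TPM scales, -0.00920 with length offsets and -0.10 without the libraries that stood apart, Tgfb2 -0.16 and Tgfbr3 0.77 without them, Tgfb3 -0.0359 and -0.0177 on the TPM scales, and Smad7 0.00368 by DESeq2 and 0.00529 with its size factors. With the mouse block, the shares of Tgfb1-203 (1.47 points) and Tgfb2-206 (15.3 points) reversed.

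Leaving out each library reversed other uncalled values, within these ranges. PDPN+ neratinib: Tgfb1 -0.17 to 0.67, Smad7 -0.49 to 0.19. EpCAM+ neratinib: Tgfb2 -0.28 to 0.44, Tgfbr1 -0.32 to 0.11, Tgfbr3 -0.51 to 0.63, Smad7 -0.23 to 0.0750, Tgfbi -0.19 to 0.42. Interaction: Tgfb1 -0.0463 to 0.86, Tgfb2 -0.0825 to 1.54, Tgfb3 -0.19 to 0.48, Tgfbr3 -1.05 to 0.19, Smad7 -0.50 to 0.20. In share points, Tgfb1 between populations -0.851 to 0.937; with neratinib in PDPN+, Tgfb2 -2.24 to 6.49 and Tgfb3 -4.10 to 8.04; in EpCAM+, Tgfbr1 -2.35 to 5.51, Tgfbr2 -5.74 to 2.15 and Tgfbr3 -0.0128 to 0.476; transcripts Tgfb1-203 -9.31 to 0.224, Tgfb2-206 -11.7 to 1.81 and Tgfbi-202 -1.47 to 5.05. The number of transcripts passing ran from 11 to 14. Depth limits Tgfbr3 in EpCAM+ cells (4 to 155 reads) and Tgfb1 and Tgfb2 there.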
